A study of Mus musculus with 3 samples.

Results

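Nptx2, Plat, Ptgs2, Gadd45b, Gadd45g, Plk2 and Pim1 are 7 genes grouped here as late activity-regulated plasticity genes. Transcripts of such genes are known to rise in neurons after strong activity. Their values were taken from every probe set that the platform annotation gives to exactly 1 of these genes. All 7 had such a probe set, 9 probe sets in all, among 8251 named genes and 12488 probe sets. Gadd45b and Pim1 had 2 probe sets each, and the other members had 1.

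Hippocampal CA1 was the tissue, taken from C57BL/6J mice, young males of an inbred strain, after contextual fear conditioning, in which an animal learns to link a place with a foot shock. Mice received 3 shocks of 1 s at 0.5 mA, each after 2 min in a new context, and were returned home 1 min after the final shock. RNA was extracted 6 h after that shock and measured on 3 arrays, which form 1 group numbered 1, 2 and 3. Whether each array held RNA from 1 animal or from several is not stated, and part of the spread may be technical. Unconditioned animals were not analysed here, so the values below are levels after training and say nothing of its effect.

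Many activity-regulated genes of this late group encode proteins that act at the synapse or in the cell body rather than as transcription factors. Calcium entry through glutamate receptors and voltage-gated channels activates kinases, these modify factors such as CREB and SRF that already sit on promoters, and the transcripts that follow feed back on receptor clustering, proteolysis outside the cell, lipid signalling, DNA repair and kinase signalling. In hippocampus many of them were first found by screens for transcripts that follow seizures or long-term potentiation.

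The promoters of the members differed in the elements they hold, and the stretches that carry them are shown for that reason. RefSeq windows on build GRCm38.p6, from 250 bases before to 50 bases after a transcription start, were matched for Plk2, Gadd45b, Gadd45g, Ptgs2 and Pim1, 5 of 7 members, with 6 windows in all since Pim1 had 2. Capitals mark a cAMP response element (CRE, TGACGTCA, the site of CREB), its core (TGACG), an E-box (CACGTG, a site of basic helix-loop-helix factors) or a TATA box (TATAAA), searched on both strands. An AP-1 site (TGACTCA) was searched too. The Plk2 stretch lies at chr13:110394794-110395043, that of Gadd45b at chr10:80929841-80930090 and that of Gadd45g at chr13:51846425-51846674, each holding the 250 bases before the start, and 30 bases of Ptgs2 lie at chr1:150100036-150100065. All are on the plus strand.
Plk2: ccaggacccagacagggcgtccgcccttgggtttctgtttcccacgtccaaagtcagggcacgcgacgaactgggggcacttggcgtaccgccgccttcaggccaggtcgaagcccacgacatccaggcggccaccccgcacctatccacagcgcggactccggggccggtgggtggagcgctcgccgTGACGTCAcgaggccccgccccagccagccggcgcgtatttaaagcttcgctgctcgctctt
Gadd45b: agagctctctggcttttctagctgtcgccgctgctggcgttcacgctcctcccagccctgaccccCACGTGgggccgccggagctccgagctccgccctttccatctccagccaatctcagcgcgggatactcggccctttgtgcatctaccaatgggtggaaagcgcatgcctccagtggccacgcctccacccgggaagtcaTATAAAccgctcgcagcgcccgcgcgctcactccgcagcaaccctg
Gadd45g: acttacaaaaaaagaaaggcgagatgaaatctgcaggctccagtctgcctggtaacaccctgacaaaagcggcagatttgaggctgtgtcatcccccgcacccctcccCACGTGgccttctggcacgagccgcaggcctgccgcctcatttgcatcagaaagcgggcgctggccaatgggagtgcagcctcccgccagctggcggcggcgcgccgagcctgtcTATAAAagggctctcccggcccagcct
Ptgs2: caccactaCGTCACGTGgagtccgctttac

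The Plk2 window was the only member window with a full CRE, whose first base lies at position -62 from the start. A full CRE is present in 1.79% of all 32851 RefSeq windows of that length. The core was found in the windows of 2 members, Plk2 and Ptgs2, and in 20.81% of all windows. In Ptgs2 the core, on the minus strand from position 14, overlaps an E-box that begins at position 17. These positions count from the RefSeq start of the window, and where transcription began in this tissue was not measured. In Plk2 a further copy of the core begins at position 22, and the full CRE holds the core on both strands. An E-box was found in 4 of the 5 members and in 4 of their 6 windows, against 7.15% of all windows. These were the windows of Ptgs2, of Gadd45b at -185, of Gadd45g at -142 and the second window of Pim1 at -58. Gadd45b and Gadd45g shared the pairing of an E-box with a TATA box, which begins at -46 and -27, and TATAAA occurs in 13.62% of all windows. The AP-1 letters were in the windows of 0 members and in 5.2% of all windows. These matches describe letters in the windows, and binding was not measured.

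**Figure D1:**
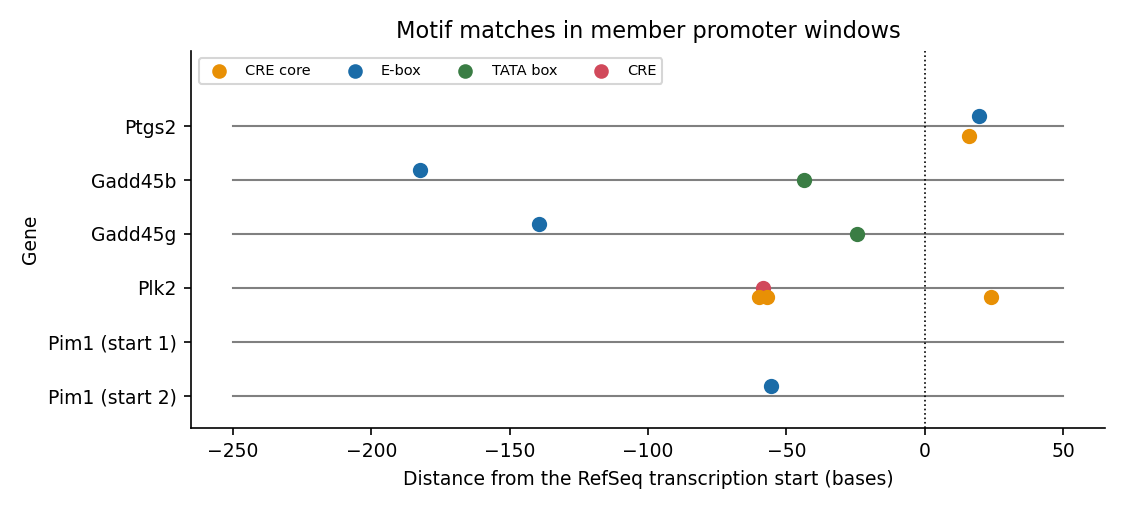
Matches to each motif (coloured points, at the middle of the match) along the 300-base promoter window of each member with a RefSeq window; the horizontal axis is the distance from the transcription start in bases, and points above or below a line are shifted only for legibility. The full CRE lies in the Plk2 window, and E-boxes lie in the windows of Ptgs2, Gadd45b, Gadd45g and the second start of Pim1.

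Signals are the deposited intensities on a linear scale, and a gene is called measured where its mean exceeds 175, the median of all deposited values, which stands in for a detection call. A signal depends on its probes as well as on the transcript, so signals of different probe sets were not ranked against each other. By this rule 6 of the 7 members were measured, each above the threshold on all 3 arrays, and Ptgs2 was under it on all 3. Of all named genes 59.1% were measured and 52.9% were above the threshold on all 3 arrays, and the 6 of 7 is given beside these shares as a description. The CA1 label was checked on Wfs1 and Pou3f1, markers of CA1 pyramidal neurons, which gave 2522 ± 66.0 and 579 ± 132 (SD, n = 3 arrays). The 3 CA1 markers with a probe set were above the threshold on all arrays. So were 3 of 4 excitatory neuron, 4 of 5 interneuron, 4 of 4 astrocyte, 4 of 4 oligodendrocyte and 5 of 6 microglial markers. Camk2a, the excitatory neuron marker under the threshold, gave 44.9, 35.4 and 38.1 at its brighter probe set and less at the other. It was named after its values were seen. Of 5 markers of the neighbouring CA3, CA2 and dentate fields 3 were also above the threshold on all arrays, with sums of 2033, 6105 and 2170 for the list, led by Nnat, the neuronatin gene, at 1042, 4862 and 885. The granule cell marker Prox1 was under it, at 28.4 ± 18.7 (SD, n = 3), and was chosen after its values were seen. Of the vascular markers, 2 of 8 for endothelium and pericytes passed on all arrays, and 1 of 3 blood markers did. In such tissue, fewer cells of a type and less RNA per cell cannot be told apart.

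**Figure D2:**
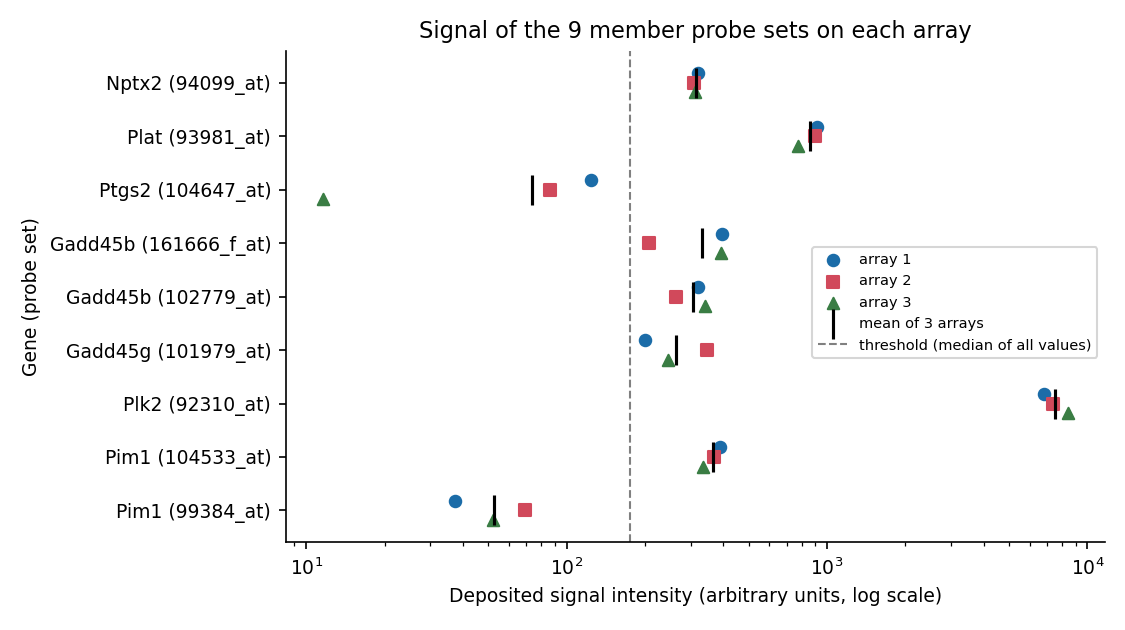
Deposited signal intensity (arbitrary units, log axis) of each of the 9 member probe sets on arrays 1, 2 and 3, with the mean as a vertical bar and the threshold of 175 as a dashed line. Plk2 lies between 6788 and 8383, the 3 points of Nptx2 nearly coincide, and all 3 points of Ptgs2 and of the second Pim1 probe set lie under the threshold.

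Nptx2 encodes neuronal pentraxin 2, also called Narp, a secreted protein that gathers AMPA-type glutamate receptors at excitatory synapses, above all on parvalbumin interneurons. Arrays 1, 2 and 3 gave 319.2, 309.7 and 312.4, a mean of 314 ± 4.90 (SD, n = 3). No array stood apart, and the SD was 1.56% of the mean, the narrowest spread of the members. The order of the arrays has no meaning at this distance, since array 3 was the highest after scaling to a common median and array 1 without it. On the log2 scale its SD was 0.03, against 0.32 for the limma prior, the SD that a smooth fit over all measured probe sets gives at its level.

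Other measured genes of the pentraxin and AMPA receptor system varied more between these arrays than Nptx2 did. Of 7 listed, 6 had a probe set and 4 were measured, and 3 of the 4 had their highest and lowest array over 2-fold apart, against 10.2% of all measured genes. Nptx1, the related pentraxin, gave 341, 868 and 766 on arrays 1, 2 and 3, lowest on array 1. Gria1, an AMPA receptor subunit, gave 7192, 8130.1 and 3565, and Gria3, another, gave 497, 363 and 176, both lowest on array 3. Gria2, the subunit that limits calcium entry, gave 11446 ± 708 (SD, n = 3) on its brightest probe set. The next gave 1225, 962 and 1346, lowest on array 2. Another, whose suffix marks probes shared within a sequence family, gave 801, 1195 and 839, highest on array 2. The spread and array order of Gria2 thus depended on the probe set. In the limma variance test 0 of the 4 had an adjusted p under 0.05. An unadjusted p under 0.05 was found for 3, against 4.57% of all measured genes. The list was chosen with earlier results of these data known, so these counts are a description. The Gapdh ratio between 3' and 5' probe sets, a measure of RNA integrity and labelling, was 3.99, 1.21 and 3.94 on arrays 1, 2 and 3, and its part in these differences was not tested.

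Plat encodes tissue plasminogen activator, a secreted serine protease that turns plasminogen into plasmin and so takes part in the cleavage of proBDNF and in late long-term potentiation. Its signal was 919, 895 and 777 on arrays 1, 2 and 3, with a mean of 864 ± 76.2 (SD, n = 3). Arrays 1 and 2 lay close together and array 3 lay lower, under each of the 4 scalings tried. The highest array was 1.18 times the lowest, and the log2 SD of 0.10 was below the prior of 0.26.

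The rest of the plasminogen system was measured in part, with 4 of 9 genes that had a probe set. Plau, the gene of the other plasminogen activator, urokinase, gave 134, 119 and 145, all under the threshold. Plaur, the urokinase receptor gene, gave 139, 49.0 and 76.6, also under it. Plg, the plasminogen gene, gave 92.3, 181 and 206 at its brighter probe set, which passed the threshold on 2 arrays but not on average. The suffix of that probe set marks probes shared within a sequence family. The other Plg probe set gave 102, 128 and 22.3, under the threshold on each array and lowest on array 3. Anxa2, whose product binds plasminogen and its activator at the cell surface, gave 352, 135 and 288, lowest on array 2 and over 2-fold apart, as 1 of the 4 measured genes. The neuronal inhibitor of the protease, neuroserpin (Serpini1), chosen after its values were seen, gave 7701 ± 158 (SD, n = 3) and differed little between arrays. In limma 0 of the 4 had an adjusted or unadjusted p under 0.05.

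Ptgs2 encodes cyclooxygenase 2, the enzyme that commits arachidonic acid to prostaglandins, which in forebrain is found in excitatory neurons and follows their activity. Its signal was 124, 86.2 and 11.6 on arrays 1, 2 and 3, with a mean of 73.8 ± 57.0 (SD, n = 3), under the threshold on each. The highest of 15 control probe sets for bacterial transcripts gave 54.1, 115 and 55.6 on the same arrays. Ptgs2 thus lay above these controls on array 1 and below the highest of them on arrays 2 and 3. Its 10.6-fold range on the deposited scale was one of weak signals: the log2 range was 1.37 with values floored at 47.5, the 25th percentile of all values, 2.89 with a floor at the 10th percentile and 0.16 with one at the 40th. Since it was not measured by the rule, it entered no test, and a signal under the threshold does not show that the transcript was absent.

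Most other prostaglandin genes were also under the threshold. Of 12 with a probe set 4 were measured and 8 were above the threshold on 0 arrays. Of all 8251 named genes 59.1% were measured and 2866 were above it on 0 arrays. With 12 genes these counts are a description. Pla2g4a, the phospholipase gene that frees arachidonic acid, gave 32.6, 70.7 and 79.8. Ptges, the inducible prostaglandin E synthase gene, gave 138, 44.8 and 50.4, highest on array 1 as Ptgs2 was. Ptges2, a further prostaglandin E synthase gene, was measured at 621 ± 76.8 (SD, n = 3). In limma 0 of the 4 measured genes had an adjusted p under 0.05. An unadjusted p under 0.05 was found for 1 of them, against 4.57% of all measured genes. That gene was Ptgds, the prostaglandin D synthase gene, named after its values were seen, at 8808, 4634 and 4726, highest on array 1. Its other probe sets were closer together and also highest there, at 7359, 5327.5 and 5170, and at 5916, 5559 and 5059. The 5 meningeal and fibroblast markers, each at its brightest probe set, summed to 3902, 3897 and 3148. At those probe sets 3 of them, Mgp, Col1a1 and Col1a2, were highest on array 1, at 329.7, 365 and 2604. The Col1a2 value comes from a probe set whose suffix marks relaxed probe selection. The second probe sets of Col1a1 and Col1a2 were under the threshold and highest on array 2, at 102.7 and 83.6. Igfbp2 and Slc6a13 were also highest on array 2, at 1002 and 455. The part of such tissue in the Ptgds level was not tested.

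Gadd45b and Gadd45g encode small adaptor proteins that bind the kinase MEKK4 and cell cycle proteins in stressed cells and take part in activity-driven DNA demethylation in neurons. Gadd45b was lowest on array 2 with both of its probe sets. The brighter, whose suffix marks probes shared within a sequence family, gave 396, 207 and 391 on arrays 1, 2 and 3, a mean of 331 ± 107 (SD, n = 3). The other gave 318, 262 and 340, a mean of 307 ± 40.2 (SD, n = 3). Array 2 was below the mean of the other arrays by a log2 shift of -0.95 for the first and -0.36 for the second, so the size of the gap depended on the probe set.

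Gadd45g went the other way. Its signal was 200.2, 346 and 246 on arrays 1, 2 and 3, with a mean of 264 ± 74.6 (SD, n = 3), highest on array 2 with a log2 shift of 0.61 and lowest on array 1. These array orders, lowest on array 2 for Gadd45b and highest there for Gadd45g, held under median scaling, no scaling, quantile normalization and cyclic loess. Gadd45a, the third gene of the family, gave 169, 37.5 and 198, under the threshold on average and lowest on array 2 like Gadd45b. Gadd45b and Gadd45g thus lay on opposite sides of the other arrays on array 2.

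None of these differences passed the variance test. The limma p for the brighter Gadd45b probe set was 0.12 unadjusted and 0.97 adjusted over all measured probe sets, and the second had an adjusted p of 0.99. For Gadd45g the adjusted p in limma was also 0.99. The log2 range of Gadd45b was 0.97 in all and 0.03 without array 2, and that of Gadd45g was 0.78 and 0.34. Array 2 was the one with a Gapdh 3' to 5' ratio of 1.21 against 3.99 and 3.94, and an Actb ratio of 1.86 against 2.57 and 3.50. The 4 choroid plexus and ependyma markers summed to 1953, 5327 and 651 on arrays 1, 2 and 3, led by Ttr, the transthyretin gene, at 1334, 4257 and 94.2, and 0 of the 4 were under the threshold on every array. The 5 markers of CA3, CA2 and dentate fields were also highest in sum on array 2, as given above, with 2 of the 5 under the threshold on every array. That sum was led by Nnat and the list did not move as one. Dsp, at its brighter probe set, was also highest on array 2, at 288. Bok, Prss23 and Prox1 were highest on array 3 instead, at 895.5, 162 and 47.8. Dsp and Prss23 were named after their values were seen. The part of any of these in the Gadd45 values was not tested.

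**Figure D3:**
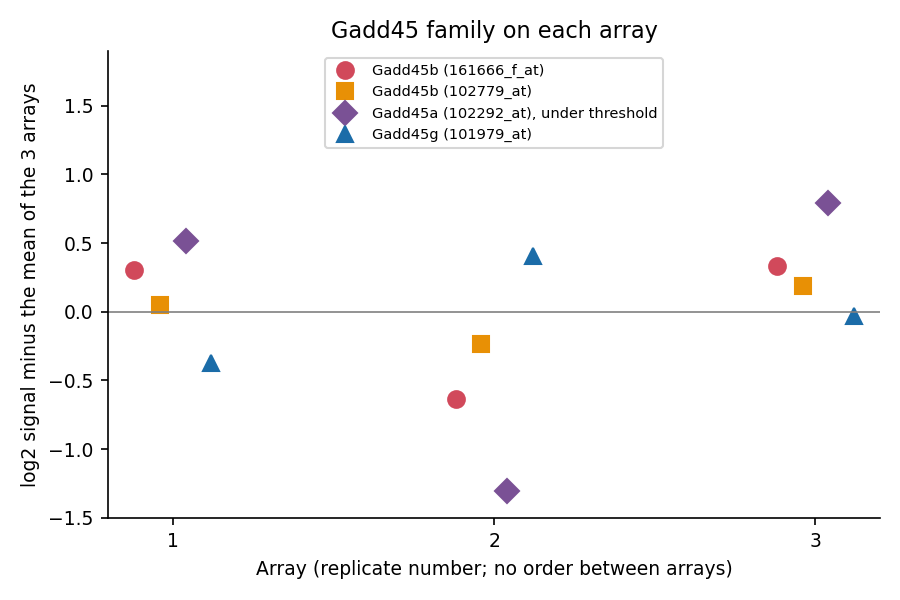
Scaled and floored log2 signal minus the mean of the 3 arrays, for both probe sets of Gadd45b and the single ones of Gadd45a and Gadd45g; the horizontal axis is the array number, with points spread sideways for legibility. On array 2 the 3 points of Gadd45b and Gadd45a lie below 0 and that of Gadd45g lies above it.

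Among 9 other genes of this pathway with a probe set, Gadd45a included, 5 were measured. Map3k4, which encodes MEKK4, gave 346 ± 42.5 (SD, n = 3), with array 1 the lowest at 298. Map2k3, a p38 pathway kinase gene, gave 695, 637 and 686 at its brightest probe set and 439, 354 and 226 at the next, which was lowest on array 3. Cdkn1a, which encodes the cell cycle inhibitor p21, gave 299, 99.5 and 165, passed the threshold on 1 array and was the 1 measured gene of the list over 2-fold apart, while its second probe set was under the threshold and highest on array 2, at 77.0, 95.7 and 48.2. In limma 0 of the 5 had an adjusted or unadjusted p under 0.05.

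Plk2 encodes polo-like kinase 2, also called Snk, which phosphorylates regulators of Ras and Rap in dendritic spines and lowers synaptic strength after prolonged firing. Its signal was 6788, 7357 and 8383 on arrays 1, 2 and 3, with a mean of 7509 ± 809 (SD, n = 3). All 3 arrays were far above the threshold, array 3 highest and array 1 lowest under each of the 4 scalings, and the highest was 1.24 times the lowest. The log2 SD of 0.18 was close to the prior of 0.21, and the adjusted p in limma was 0.99. Its promoter stretch held the full CRE, and the part of that element in the level of Plk2 was not tested.

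Among the other polo-like kinases and the partners of Plk2, 7 genes had a probe set and 5 were measured on all 3 arrays. Plk3, which is also known to follow neuronal activity, gave 5982, 6545 and 6240 on a probe set whose suffix marks relaxed probe selection. Plk1, a kinase of mitosis, gave 351, 419 and 247 on its brightest probe set, which is of the family kind, and 335, 203 and 296 on the next. Array 2 was the highest on the first and the lowest on the second, so the rank of the arrays for Plk1 depended on the probe set. Rasgrf1, a Ras activator that Plk2 is known to phosphorylate, gave 2741, 2777 and 3455, highest on array 3 as Plk2 was. In limma 0 of the 5 had an adjusted or unadjusted p under 0.05.

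Pim1 encodes a serine and threonine kinase that promotes cell survival and is induced through JAK and STAT signalling, and in hippocampus also after long-term potentiation. Its brighter probe set gave 389, 367 and 334 on arrays 1, 2 and 3, a mean of 363 ± 27.4 (SD, n = 3), and the highest array was 1.16 times the lowest. The log2 SD of 0.09 lay below the prior of 0.30. The second probe set gave 37.1, 69.0 and 52.0, under the threshold on each array, with array 1 the lowest rather than the highest. The 2 probe sets therefore did not rank the arrays alike, and the level called for Pim1 rests on the first.

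All 9 genes listed around Pim1 had a probe set, and 5 were measured on all 3 arrays. Pim2 gave 542, 681 and 641, and Pim3 gave 363, 642 and 338, highest on array 2, the array on which Pim1 was intermediate. Bad, which encodes a cell death protein that Pim kinases phosphorylate, gave 465, 334 and 392 on its brighter probe set and 139, 315 and 210 on the other, in opposite orders. Among the 5, 0 were over 2-fold apart and in limma 0 had an adjusted or unadjusted p under 0.05.

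The spread of the members between arrays is given beside that of all measured genes, as a description. Of the 6 measured members 0 had their highest and lowest array over 2-fold apart, against 10.2% of all 4876 measured genes, and Gadd45b, with a log2 range of 0.97, lay just inside that limit. Their log2 SD ran from 0.03 for Nptx2 to 0.55 for Gadd45b, with a median of 0.14, beside a median of 0.25 over all measured genes. In limma 0 of 6 passed the variance test adjusted over all probe sets, and 0 had an unadjusted p under 0.05, against 0.0161% of measured probe sets for the first and 4.57% of measured genes for the second. With 6 members these counts lie near the background shares, so they are no result about the members.

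**Figure D4:**
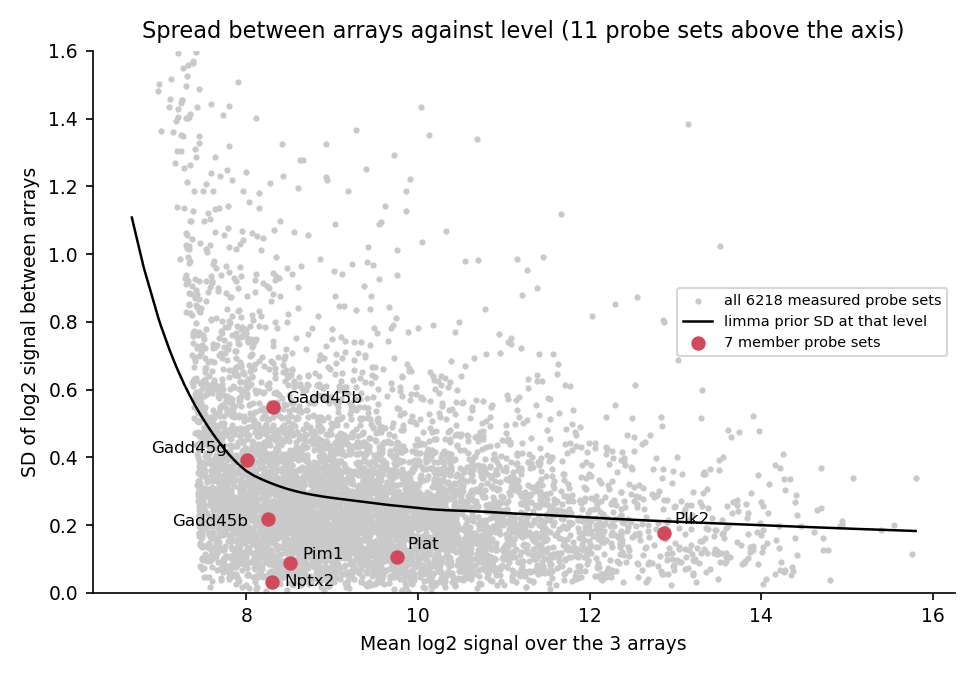
SD of log2 signal between the 3 arrays against mean log2 signal for 6218 measured probe sets (grey), with the limma prior SD (line) and the 7 measured member probe sets (red); 11 probe sets lie above the top of the axis. The brighter probe set of Gadd45b and that of Gadd45g lie above the line, and Nptx2, Pim1, Plat, Plk2 and the second probe set of Gadd45b lie under it.

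Of 14 other genes that follow activity late, 11 had a probe set, 7 were measured and 6 were above the threshold on all 3 arrays. Bdnf, the neurotrophin gene, gave 2720, 1982 and 2693, lowest on array 2 like Gadd45b. Inhba, which encodes the activin A subunit, gave 132, 159 and 198, above the threshold on array 3 alone. Homer1, a scaffold gene of the postsynaptic density, gave 106, 130 and 60.8 on its brighter probe set, under the threshold on each array. Of the 7 measured genes 0 were over 2-fold apart, their median log2 SD was 0.28, and in limma 0 had an adjusted or unadjusted p under 0.05.

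The gene with the most similar pattern over the 3 arrays was sought for each measured member, as the smallest Euclidean distance between log2 profiles centred on their means. For Gadd45b it was Mpdz, which encodes a scaffold protein with many PDZ domains, at 430, 226 and 420 and a distance of 0.014. For Gadd45g it was Pgd, a gene of the pentose phosphate pathway, at 260.1, 452 and 319. Tenm2, a teneurin gene, was nearest to Plk2, Jak1, a Janus kinase gene, to Pim1, Gtpbp1 to Nptx2 and Snrnp25 to Plat. Over only 3 arrays such likeness is common: 27 of 6217 other measured probe sets lay within 0.1 of Gadd45b, 66 of Gadd45g, 211 of Plk2, 252 of Plat, 295 of Pim1 and 378 of Nptx2. The flatter the profile, the more probe sets shared it.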

How the data were processed

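For each array the authors deposited a linear signal intensity for every probe set. The mean after trimming 2% at each end was 500.3 on each array, which shows scaling before deposit. Its method, the program and the background correction were not given in the sources used here. All 3 columns belong to the samples, with 0 columns of others. Of 12488 probe sets, 66 were controls, 10833 had 1 gene symbol, 396 had several and 1193 had none. Symbols come from the platform annotation, and a check through Entrez identifiers against the GRCm38.p6 table changed 0. Median signals were 176, 177 and 171, and the number of arrays limits the precision.

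Arrays were scaled to a common median over measured probe sets, floored at 47.5 and log2-transformed. A gene was represented by its brightest probe set. The variance of 6218 measured probe sets was compared with a robust prior that depends on intensity, with limma 3.58.1 (R 4.3.3; winsor tails 0.05 and 0.1). This was an upper-tail F test with Benjamini-Hochberg adjustment and a threshold of 0.05. A check on simulated data required calls only at the largest shift simulated, and few calls without a shift. The 1 probe set that passed here, that of Ttr, had a log2 range of 5.45, so much smaller differences could go uncalled. Members, gene lists and tests were chosen with earlier results of these data known. Named were the members, the first 3 genes of each pathway list with a probe set, list genes over 2-fold apart, up to 2 genes of a marker list, and the gene nearest in profile to each measured member; Col1a2, Igfbp2 and Slc6a13 were named after their values were seen. Promoters are RefSeq's.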

Additional observations from a re-analysis of the deposited data

How the results depend on the processing

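Alternatives covered scaling, floor, threshold, the probe set per gene, the prior and leaving out each array; the restriction to probe sets with the plain suffix was chosen after seeing the data. With the threshold at the 75th percentile 2 members were measured, Plat and Plk2. With it at the 25th percentile all 7 were, and 1, Ptgs2, was over 2-fold apart, against 21.5% of all genes measured there. In all other settings, each array left out included, 6 members were measured and 0 were over 2-fold apart. The limma variance test called 0 members in every setting, and 0 had an unadjusted p under 0.05; the lowest adjusted p of a member ran from 0.80, without array 3, to 0.99. Of 168 mean signals and log2 ranges of single members under an alternative, 155 moved by less than the SD between arrays and 13 by more. Among the 13 the mean of Pim1 was 208 with both probe sets averaged. Many of the 155 could not move. Mean signals were taken before median scaling and flooring, so no scaling, another floor or another threshold left them unchanged. Choices of probe set left members with 1 probe set unchanged, and floors left the ranges of brighter members unchanged. With the plain suffix alone the log2 range of Gadd45b was 0.43. Leaving out an array also moved the backgrounds: the share of measured genes over 2-fold apart was 6.49% without array 1, 2.89% without array 2 and 5.56% without array 3, and 56 probe sets passed the variance test without array 3, against 1 with all arrays. On arrays 2 and 3 the signal of Ptgs2 was below the highest bacterial control, which limits what its values show.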
